A study of Mus musculus with 18 samples.

Results

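The 108 mature miRNAs described here carry the numbers miR-6896 to miR-7094 in the deposited table and come from 94 hairpins. They were selected on their own values: of 282 entries with these numbers, the 108 listed at 10 normalized counts or more in at least 2 of 18 libraries were kept, out of 1390 entries in all. Of these members, 57 are 5p arms and 51 are 3p arms, named for the side of the hairpin they come from. The other 174 entries of the number range never exceeded 68 normalized counts. Because the values chose the members, counts over the members describe them and were not used as tests.

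Small RNAs were sequenced while mouse embryonic stem cells (ESCs) were derived from the inner cell mass (ICM), the part of the blastocyst that forms the embryo. All animals were of the NMRI strain, ICMs were isolated by immunosurgery, which removes the outer trophectoderm, and outgrowths and ESCs grew on gelatin in N2B27 medium with leukemia inhibitory factor and the R2i inhibitors PD0325901, which blocks MEK, and SB431542, which blocks the type I receptors for TGF-beta and activin. There were 2 libraries in each of 9 groups: freshly isolated ICM, outgrowths at 0.5 and 1 days, at 2 and 3 days and at 5 days, each a group of its own, and 3 ESC groups described as P2, P4 and P15. The titles give the ESC libraries other passages than their descriptions do, so no passage order was read. How many ICMs or lines went into a library, and whether the 2 libraries of a group came from separate embryos or cultures, is not given in the sources used here. All p-values therefore measure the spread between the 2 libraries within groups, which may be technical. Differences among the ESC groups or among the outgrowth days do not enter that spread.

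Most miRNAs are cut from their primary transcript by the nuclear enzyme Drosha with its partner Dgcr8, and then by Dicer in the cytoplasm. Mirtrons skip the first cut: the spliceosome excises a short intron, the lariat is debranched, and the intron folds into a hairpin that Dicer can process. In tailed mirtrons only 1 end of the hairpin is a splice site, and the rest of the intron is trimmed away. Each member below lies in the gene named as its host, whose own RNA was not measured here.

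The mirtron label was checked against the GENCODE vM21 introns on GRCm38. For 84 of the 94 hairpins the RefSeq hairpin (GRCm38.p6) was compared with introns on the same strand, allowing 2 bases. In 7 hairpins both ends were the ends of 1 intron, in 72 the 3′ end alone lay at an intron's 3′ end, in 2 the 5′ end alone lay at an intron's start, and in 3 neither did. Among the hairpins of the other miRNAs past the filter, 396 of 416 (95.2%) had neither end at a splice site. All but 3 of the member hairpins compared thus had an end at a splice site, most often the 3′ end alone. The hairpins that follow show the 3 layouts, with the measured arm in capitals. The first 3 span a whole intron, the next 2 end with one, and the last has neither end at a splice site.
miR-7091: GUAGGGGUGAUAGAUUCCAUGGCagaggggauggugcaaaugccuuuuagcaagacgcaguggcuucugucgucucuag
miR-7058: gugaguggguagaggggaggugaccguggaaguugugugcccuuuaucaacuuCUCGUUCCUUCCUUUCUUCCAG
miR-6944: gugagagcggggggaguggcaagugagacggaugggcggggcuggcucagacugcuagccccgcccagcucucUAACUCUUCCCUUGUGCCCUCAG
miR-7000: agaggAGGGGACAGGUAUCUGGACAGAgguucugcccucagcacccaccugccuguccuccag
miR-6909: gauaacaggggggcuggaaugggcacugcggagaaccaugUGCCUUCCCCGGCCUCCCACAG
miR-7025: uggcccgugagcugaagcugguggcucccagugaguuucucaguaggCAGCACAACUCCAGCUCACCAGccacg

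miR-7091 is the 79-base intron of Dnase1l1 at chrX:74274027-74274105 (minus strand), and its measured 5p arm starts with the intron's first base. miR-7058 is a 75-base intron of Lat, which encodes an adaptor of T cell receptor signalling, at chr7:126367971-126368045 (minus strand). miR-6944 is a 96-base intron of Dbn1, which encodes the actin-binding protein drebrin, at chr13:55477681-55477776 (minus strand). miR-7000 lies at chr2:92387384-92387446 (minus strand), at the end of a 170-base intron of Mapk8ip1, a scaffold of the JNK pathway. miR-6909 lies at chr10:79531029-79531090 (minus strand), at the end of a 2595-base intron of Plpp2, a lipid phosphatase. miR-7025 lies at chr5:75176831-75176904 (plus strand) in Pdgfra, a receptor for platelet-derived growth factor: its 5p arm overlaps an exon, and its 3p arm begins 17 bases into the 784-base intron that follows.

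The arms themselves carried the marks of splice sites. Of 45 member 3p arms with a RefSeq sequence, 31 (68.9%) ended on the last base of an annotated intron and 40 (88.9%) within 2 bases of it, against 7 of 242 (2.89%) and 12 of 242 (4.96%) of the other 3p arms past the filter. Accordingly 33 of the 45 ended in AG, the bases that close an intron, against 18 of 242 other 3p arms. Of 51 member 5p arms, 6 (11.8%) started on an intron's first base, and 6 began with GU, the bases that open an intron. The remaining 5p arms started elsewhere, nearly all of them further inside the intron. All but 1 of the 96 members with a sequence, miR-7025-5p, lay inside an intron, 94 of them in a protein-coding gene, although 19 of the 96 also overlapped an exon of some transcript.

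**Figure D1:**
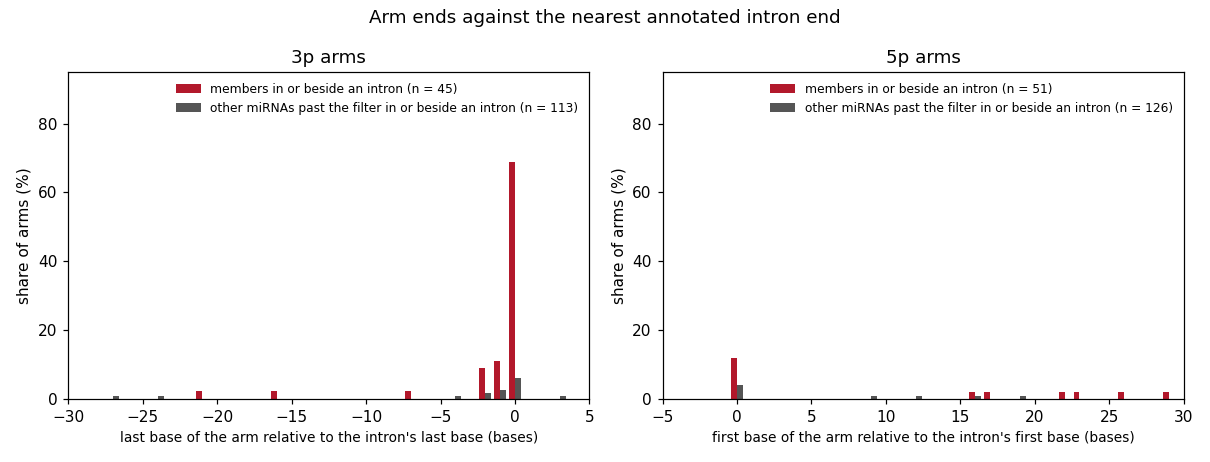
Position of each arm relative to the nearest annotated intron end, in bases, for 3p arms (last base of the arm against the intron's last base, left) and 5p arms (first base against the intron's first base, right), as a share of the arms lying in or beside an intron. The tall bar at 0 on the left holds 31 of 45 member 3p arms, against 7 of 113 other 3p arms, and 2 member 3p arms and 39 member 5p arms lie outside the plotted range.

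Base composition followed the arm. Member 5p arms were 46.0% G and 30.1% pyrimidine, whereas member 3p arms were 43.0% C and 69.7% pyrimidine; introns in general carry a pyrimidine-rich tract before their 3′ end. For the other miRNAs past the filter the pyrimidine shares were 49.2% in 5p arms and 53.3% in 3p arms. Host introns were short, with a median of 356 bases for 5p members and 575 bases for 3p members, against 4195.5 and 3746 bases for other miRNAs. Lengths did not set the members apart, since the median was 22 bases in every one of these sets.

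The mature sequences of the members that the results below turn on are given with the seed, bases 2 to 8 of the miRNA that pair with targets, in capitals.
miR-7000-5p: aGGGGACAgguaucuggacaga
miR-6909-3p: uGCCUUCCccggccucccacag
miR-7091-5p: gUAGGGGUgauagauuccauggc
miR-7016-3p: aCCUGCCUccugcucuccccag
miR-6944-3p: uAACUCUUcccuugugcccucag
miR-6948-3p: uGUCCUUCcugucugaccaca
miR-6968-5p: aGGGGGCGagggggcccugugg
miR-7058-3p: cUCGUUCCuuccuuucuuccag
miR-7025-3p: cAGCACAAcuccagcucaccag
miR-7023-3p: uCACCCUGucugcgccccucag
miR-7068-3p: uCACCCUGgacugacucucag
miR-6960-5p: cAGGAUGAgaagaguuuggcug
miR-7093-5p: cAGGAUGAcagaaggaaaaccu

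Few seeds were shared between members. The 96 members with a sequence had 94 seeds, and 2 seeds were shared by a pair each: miR-7023-3p with miR-7068-3p, and miR-6960-5p with miR-7093-5p, the last 4 sequences above. The members are thus no seed family. Of the 94 seeds, 13 also occur in entries of the table that are not members, among them those of miR-6921-5p (in miR-423-5p), miR-6958-5p (in miR-30c-1-3p and miR-30c-2-3p), miR-7014-3p (in miR-130b-5p) and miR-7048-5p (in miR-185-3p).

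Depth differed between stages. From ICM to day 3 the values of the 10 libraries lie on even steps, from which 111000 to 370000 reads per library were estimated. For day 5 and ESC no step was found, and 2320000 to 3020000 reads per library were estimated from the lowest listed values. Small values therefore appear only in the later libraries, where the lowest listed value was 1 or 2 normalized counts, against 9 to 27 before. Detection was therefore compared at 27.2 normalized counts, called the floor here and worth 5 reads in ICM replicate 1. Each test was repeated with values below the floor raised to it. Because values are rounded, 5 reads in ICM replicate 1 are listed as 27, just below the floor. Of the 52 members listed in that library, 40 thus count as detected. Of the members, 58 reached the floor in at least 2 libraries and 23 in none.

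Members were detected most widely in ICM and at day 0.5. At the floor, 40 and 52 of the 108 were detected in the 2 ICM libraries, 41 and 48 at day 0.5, 20 and 24 at day 1, 16 and 18 at day 2, 13 and 10 at day 3, and 10 and 8 at day 5. In the 6 ESC libraries 5 to 9 were detected, with a median of 7. Every ICM and day 0.5 library thus lay above every later library. The 703 other miRNAs past the filter showed no such drop: between 305 and 398 of them were at the floor in each of the 18 libraries. The 8 deep libraries held at most 10 members at the floor. Because 81 members passed the selection only within the 10 shallow libraries (ICM to day 3), part of the drop toward day 5 and ESC is built in. The earlier drop after day 0.5 is partly built in too, since 46 members reached 10 in no library outside ICM and day 0.5.

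The members' summed share of all normalized counts moved the same way. It was 2.13% and 2.24% in ICM, 1.01% and 2.35% at day 0.5, and from 0.253% to 0.465% over the 6 libraries of days 1 to 3 (median 0.377%). At day 5 it was 0.340% and 0.231%, and in ESC 0.0817%, 0.191% and 0.334% were the lowest, median and highest values. ICM and ESC did not overlap. Without miR-7000-5p, miR-6909-3p and miR-7025-3p, the members with the highest means, the share was 0.951% to 1.26% in ICM and 0.0346% to 0.0806% in ESC. Over all 282 entries of the number range, selected or not, the share was 2.16% and 2.42% in ICM and 0.0872% to 0.338% in ESC. Of the 108 members, 46 had their highest library in ICM, 44 at day 0.5, 9 at days 1 to 3, 2 at day 5 and 7 in ESC.

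**Figure D2:**
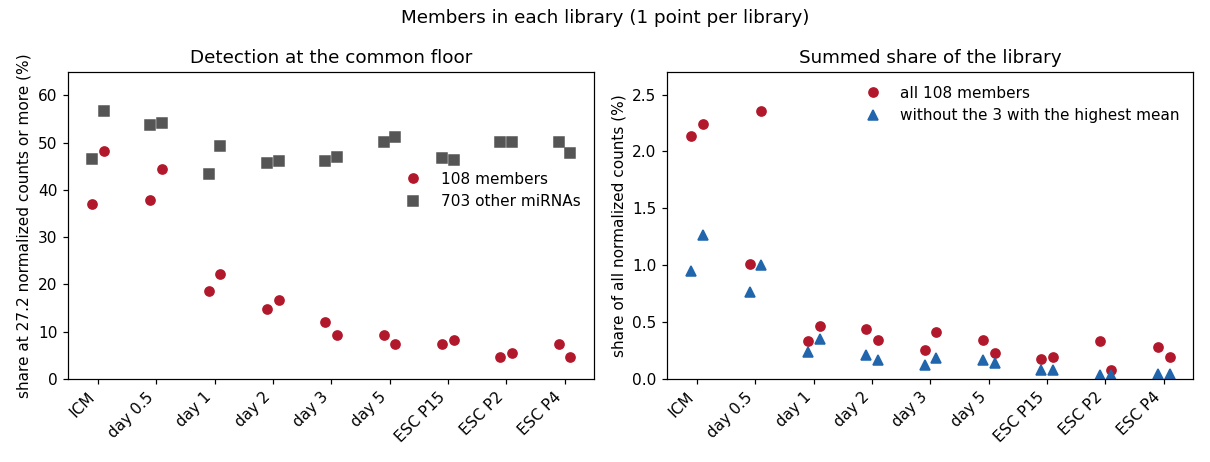
Each point is 1 library. The left panel gives the share of members and of other miRNAs at the floor of 27.2 normalized counts, and the right panel the members' share of all normalized counts with and without miR-7000-5p, miR-6909-3p and miR-7025-3p. Members fall from 40 and 52 of 108 in ICM to 5 to 9 in ESC, while the other miRNAs stay between 43.4% and 56.6%.

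A few members held most of this signal. miR-7000-5p alone made up 41.2% of the members' sum in ICM, and miR-6909-3p 52.6% of it in ESC. Only 8 members had a mean of at least 100 normalized counts over the 18 libraries, and 64 had a mean below 10. Only miR-6909-3p was at 10 or more in all 18 libraries. At 5 reads the counting error is 44.7% of the value, so single low values are coarse.

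ESC were first compared with ICM, the 2 ends of the derivation. Of the 108 members, 44 were lower in ESC at an adjusted p below 0.05 (limma, adjusted over 811 miRNAs), beside 23.7% of all miRNAs tested, and 5 were higher, beside 31.6% of all. The median log2 change was -2.62 over the members and 0.011 over all miRNAs tested. At the common floor 32 of 58 members were lower and 2 higher, beside 32.2% and 35.9% of all miRNAs tested there, with a median of -0.64 against 0. Part of this is built into the choice of members. Of the 108, 81 passed it only within the 10 shallow libraries (ICM to day 3) and 3 only within the 8 deep ones. In 46 of them no library outside ICM and day 0.5 reached 10. Those of the 46 that reached 10 in both ICM libraries had to be lower in ESC. Those that reached it at day 0.5 alone did not have to be lower than in ICM. Without ICM replicate 1, the shallowest library, 72 members were lower and 5 higher, and with library weights 20 and 2.

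**Figure D3:**
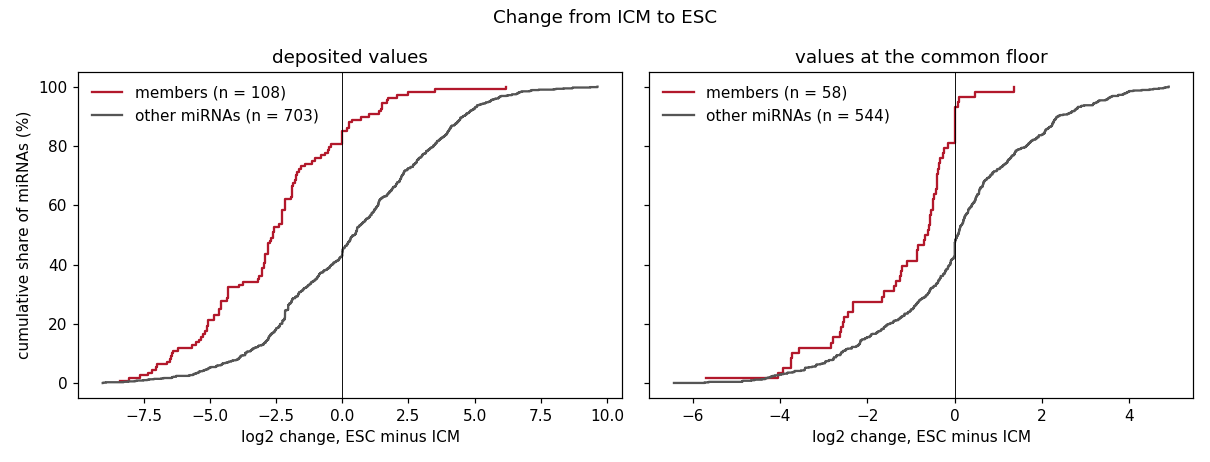
Cumulative share of miRNAs by log2 change from ICM to ESC, for members and other miRNAs, with the deposited values (left) and with values set to the floor of 27.2 (right). The members' curve lies to the left of the others over most of its range, with medians of -2.62 (deposited) and -0.64 (floor).

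miR-7000-5p, the most abundant member, stood at 6270 and 4788 normalized counts in ICM, an estimated 1153 and 1544 reads. In outgrowths it ranged from 204 to 1021 (median 739), and in ESC from 0 to 231 (median 137). Both ICM libraries lay above every other library, and the outgrowths overlapped ESC only through 1 day 5 library at 204. It fell by 6.51 on the log2 scale from ICM to ESC (SE 1.15, adjusted p = 0.00052), and fell by 5.71 at the floor. With library weights this call was lost (adjusted p = 0.18). From ICM to outgrowths it fell by 3.38 (SE 1.09, adjusted p = 0.034), a call lost when any 1 of 7 libraries was left out (adjusted p up to 0.13), without the filter (0.055) and with library weights (0.65).

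miR-7091-5p, from the whole-intron hairpin in Dnase1l1, kept its level longer. It was at 587 and 729 in ICM, 615 and 814 at day 0.5, 520 and 578 at day 1, 604 and 498 at day 2, 404 and 350 at day 3, and 180 and 182 at day 5. ESC had 103 and 102 (P15), 0 and 0 (P2), and 53 and 31 (P4). The 6 ESC libraries lay below all 12 others. It fell by 5.33 from ICM to ESC (SE 0.22, adjusted p = 4.6e-09), and fell by 3.73 at the floor, and fell by 4.72 from outgrowths to ESC (SE 0.14, adjusted p = 2.6e-10). From ICM to outgrowths the change was -0.61 (SE 0.21, adjusted p = 0.039), and this call was lost without any 1 of 5 libraries (adjusted p up to 0.24) and under 5 other settings, up to 0.60 with library weights.

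The other members that fell most from ICM to ESC were 3p arms for the most part. miR-6982-3p had 310 and 465 in ICM and 0 or 1 in every ESC library, with 331 and 612 at day 0.5 and 3 and 3 at day 5. It fell by 8.41 (SE 0.96, adjusted p = 1.8e-05), and fell by 3.75 at the floor. miR-7058-3p, the acceptor arm of the Lat intron, had 370 and 580 in ICM, 237 and 283 at day 0.5, 47 and 38 at day 1, and 0 to 4 in ESC. It fell by 8.04 (SE 0.88, adjusted p = 1.3e-05), and fell by 4.04 at the floor. In both, ICM and ESC were far apart. At day 0.5 miR-6982-3p overlapped its ICM values, and miR-7058-3p lay below them but far above ESC.

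miR-6954-5p was listed at 179 and 226 in ICM, 23 and 21 at day 0.5 and 98 and 115 at day 1, and at 0 in each of the 12 libraries from day 2 on. As all ESC libraries were at 0, only the change at the floor is given, a fall by 2.84 (adjusted p = 4.3e-09). miR-6976-3p, from an intron of Srf, the serum response factor, had 152 and 245 in ICM and 0 to 2 in ESC, and fell by 7.34 (SE 1.3, adjusted p = 0.00052, or 0.058 with library weights). At the floor it fell by 2.78. miR-6984-5p, from an intron of Mrpl21, a mitochondrial ribosomal protein gene, had 71 and 366 in ICM and 0 or 1 in ESC, and fell by 7.18 (SE 0.83, adjusted p = 1.9e-05). Its ICM libraries lay far apart, so the size of that fall is uncertain.

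A pair of 3p arms among the 12 most abundant members was still listed in the middle of the series. miR-6948-3p lies at the end of an intron of Acin1, which encodes a nuclear protein of RNA processing and apoptosis, at chr14:54643050-54643070 (minus strand). It had 375 and 378 in ICM, 213 and 322 at day 0.5, 31 and 44 at day 1, 102 and 91 at day 2, 53 and 60 at day 3, 17 and 15 at day 5, and 1 to 7 in ESC. miR-6923-3p, from a 72-base intron of Myh3, the embryonic myosin heavy chain gene, had 332 and 332 in ICM, 251 and 248 at day 0.5, 47 and 91 at day 1, 79 and 70 at day 2, 24 and 27 at day 3, 5 and 5 at day 5, and 0 to 5 in ESC. In both, the ICM replicates lay close together and ESC lay below every library up to day 3. From ICM to ESC miR-6948-3p fell by 6.63 (SE 0.49, adjusted p = 4.3e-07) and miR-6923-3p fell by 7.02 (SE 0.46, adjusted p = 1.7e-07), and at the floor the first fell by 3.74 and the second fell by 3.56.

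**Figure D4:**
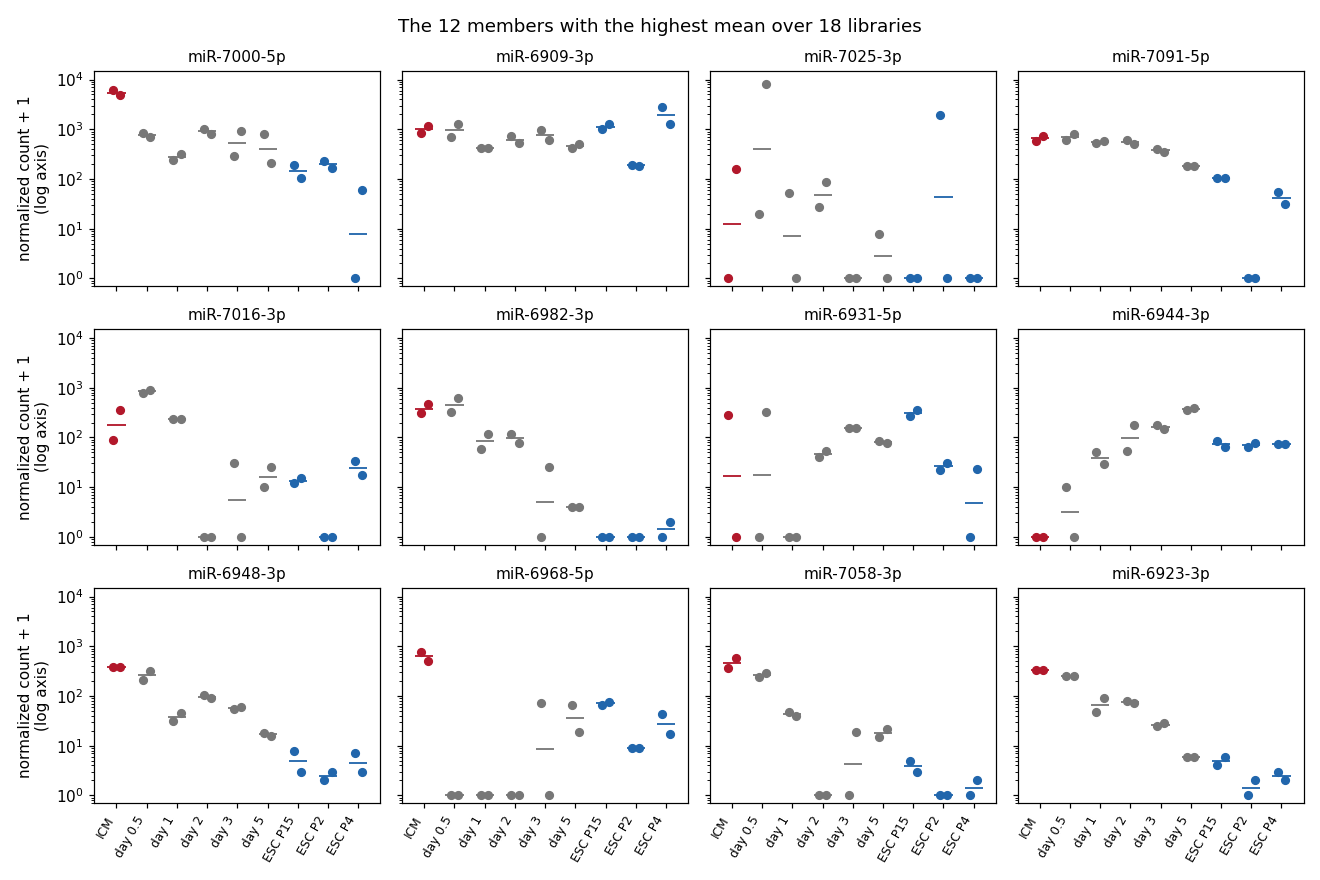
Normalized counts plus 1, on a log axis, of the 12 members with the highest mean, by group from ICM through the outgrowth days to the ESC groups. Points are libraries and lines are means of log values over the 2 libraries of a group. Most panels fall from left to right, miR-6944-3p rises from 0 in ICM to 356 and 396 at day 5, and miR-7025-3p has single libraries at 8197 and 1913.

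Only 1 member rose from ICM to ESC with a call that also held at the floor, miR-6944-3p, the acceptor arm of the Dbn1 intron. It was at 0 and 0 in ICM, 9 and 0 at day 0.5, 51 and 28 at day 1, 53 and 174 at day 2, 178 and 146 at day 3, and 356 and 396 at day 5. All 6 ESC libraries lay between 63 and 83, above ICM and below day 5. Since both ICM libraries were at 0, its changes from ICM are given at the floor: a rise of 1.36 to ESC (adjusted p = 0.006) and of 1.70 to outgrowths (adjusted p = 0.0017). From day 5 to ESC it fell by 2.38 (SE 0.72, adjusted p = 0.0497), a call that was lost when any 1 of 14 libraries was left out and that passed at the floor (adjusted p = 0.00047).

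At the floor miR-6992-5p also passed, with 84 and 62 in ESC P4 and 0 to 15 in the other ESC libraries, against 27 and 0 in ICM (0.46, adjusted p = 0.013). The other 4 members called higher in ESC than in ICM were low. miR-6960-5p, from an intron of Troap, had 3 to 21 in ESC, 5 and 4 at day 5 and 0 in the 10 earlier libraries. miR-6898-5p, miR-7083-3p and miR-6952-3p did not exceed 18, 12 and 8 in ESC. None of these values reaches 27.2, so such levels would not have been listed in ICM replicate 1, and no rise is read from them.

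Outgrowths of all 5 times together were then compared with ICM. Here 34 members were lower and 2 higher, beside 18.6% and 16.3% of all 811 miRNAs tested. The median log2 changes were -1.78 and -0.31. At the floor 28 of 58 were lower and 2 higher, beside 26.7% and 19.1% of all tested there. The ICM libraries are the same in both comparisons, so the counts are not independent of those for ESC. Part of the fall is again built in, since members that passed the selection through ICM alone had to be lower in outgrowths. Without ICM replicate 1 the counts became 57 lower and 4 higher, and with library weights 5 and 1.

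miR-6968-5p, from a 142-base intron of Phf1, a partner of Polycomb repressive complex 2, was high in ICM and missing from the first outgrowths. It was at 772 and 512 in ICM, an estimated 142 and 165 reads, and at 0 in all 6 libraries of days 0.5 to 2. It was at 72 and 0 at day 3, 65 and 18 at day 5, and 8 to 76 in ESC. From ICM to outgrowths it fell by 7.65 (SE 1.16, adjusted p = 0.00038), and fell by 4.22 at the floor. With library weights the call was lost (adjusted p = 0.072). From outgrowths to ESC it rose by 3.05 (SE 0.77, adjusted p = 0.0065), but not at the floor, where the change was 0.29 (adjusted p = 0.31).

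miR-6955-3p, from Gga1, and miR-7017-3p, from Wasf2, a regulator of actin branching, were listed in ICM and nowhere else. Their ICM values were 33 and 53, and 33 and 37, and all 16 later libraries were at 0. Both passed the selection through ICM alone, so their lower values elsewhere follow from it and no test is given. miR-6905-3p, from an intron of Med23, a Mediator subunit gene, had 76 and 360 in ICM and 0 to 31 in outgrowths. It fell by 5.29 (SE 1.41, adjusted p = 0.013), a call lost without ICM replicate 2 (adjusted p = 0.13) and with library weights (0.26). At the floor it fell by 2.55. miR-6952-3p was called higher in outgrowths through 42 and 32 at day 0.5 alone, with 0 in ICM, and its change at the floor was 0.08 (adjusted p = 0.37).

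Days 2 and 3 were compared with days 0.5 and 1 because all of these libraries are shallow. In this comparison 36 members were lower and 1, miR-6944-3p, was higher, beside 21.9% and 11.2% of all 811 miRNAs tested. Medians were -1.44 for members and -0.71 for all. At the floor 21 of 58 were lower and 1 higher, beside 23.9% and 16.1% of all. All 8 libraries are of the shallow kind, with 177000 to 370000 estimated reads. Part of the fall is nevertheless built into the choice of members, as 46 of them reached 10 in no library outside ICM and day 0.5. Those of the 46 that reached 10 in both day 0.5 libraries had to be lower at days 2 and 3.

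miR-7016-3p, from a 2271-base intron of Tmem39b, fell most. It had 87 and 350 in ICM, 795 and 899 at day 0.5, 231 and 233 at day 1, 0 and 0 at day 2, and 29 and 0 at day 3. The 4 libraries of days 0.5 and 1 lay above all 4 of days 2 and 3, a fall by 7.57 (SE 0.90, adjusted p = 8.2e-05), and fell by 3.95 at the floor. miR-7058-3p fell by 5.67 (SE 0.76, adjusted p = 0.00022), or by 1.91 at the floor, with 0, 0, 0 and 18 at days 2 and 3. miR-7032-3p, from Hip1r, a clathrin adaptor gene, went from 50, 138, 20 and 28 to 26, 0, 0 and 0, a fall by 4.32 (SE 0.82, adjusted p = 0.0018). At the floor its fall was only 0.80.

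The 5p arm miR-6921-5p, from a 97-base intron of Srebf1, the sterol regulator, had a peak confined to day 0.5. It was at 147 and 191 there, at 0 and 40 in ICM, 0 and 10 at day 1, and 0 in the 4 libraries of days 2 and 3. Its fall by 4.56 (SE 1.25, adjusted p = 0.015) was lost without day 1 replicate 2 (adjusted p = 0.062) and with library weights (0.12). At the floor the fall was 1.29. miR-6944-3p rose by 3.50 between these days (SE 0.63, adjusted p = 0.0013), or by 1.92 at the floor.

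ESC were compared with all outgrowths next. Lower in ESC were 24 members (22.2%) and higher 6 (5.56%), beside 19.9% and 31.9% of all 811 miRNAs tested. The share lower was thus near that of all miRNAs. Median changes were -0.72 for members and 0.28 for all. Members that passed the selection through day 0.5 alone were chosen on outgrowth values, so part of these falls is built in. At the floor 20 were lower and 2 higher, beside 26.7% and 36.4% of all. The 6 called higher were miR-6960-5p, miR-6898-5p, miR-6968-5p, miR-7071-5p, miR-7083-3p and miR-6979-3p. Only 2 of them, miR-6968-5p and miR-7071-5p, were high enough to be tested at the floor, and neither was called there. The members called higher at the floor were miR-6992-5p and miR-7068-3p. miR-7071-5p, from Heatr3, had 1 to 34 in ESC and 0 to 24 in outgrowths, so the groups overlapped (change 2.50, SE 0.67, adjusted p = 0.0088). At the floor its change was 0.07.

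Among those lower in ESC, miR-7082-3p, from an 88-base intron annotated to Raver1, had 4 to 115 in outgrowths (median 46) and 0 to 4 in ESC. It fell by 4.48 (SE 0.33, adjusted p = 4.9e-07), but only by 0.80 at the floor. Its ICM values were 60 and 59, close to those of the outgrowths up to day 2. miR-6948-3p fell by 4.04 (SE 0.31, adjusted p = 5.7e-07) and miR-6923-3p fell by 4.15 (SE 0.29, adjusted p = 2.9e-07). At the floor the first fell by 1.29 and the second fell by 1.16. miR-6982-3p fell by 5.06 (SE 0.61, adjusted p = 3.3e-05), and fell by 1.47 at the floor, with outgrowths ranging from 0 to 612 and overlapping ESC at the low end.

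Day 5 and ESC libraries are all deep. Lower in ESC were 6 members and higher 1, beside 9.0% and 5.92% of all 811 miRNAs tested, and both medians were near 0 (0 for members, -0.05 for all). At the floor 4 were lower and 1 higher, beside 14.3% and 17.1% of all. miR-7091-5p fell by 3.48 (SE 0.22, adjusted p = 2.0e-06) and miR-7023-3p fell by 2.90 (SE 0.50, adjusted p = 0.0019). At the floor the first fell by 1.88 and the second fell by 0.98. miR-7023-3p, from a 77-base intron of Pik3cd, a PI3-kinase subunit gene, had 163 and 143 in ICM, 42 and 71 at day 5 and 0 to 24 in ESC. With library weights 11 members were lower and 3 higher, and without either day 5 library 2 were lower and none higher. It was 3 or 4 in all without either P2 library, P15 replicate 2 or P4 replicate 1. Scaling changed the split: it was 0 higher and 8 lower with libraries rescaled to the same total, and 2 higher and 4 lower with quantile normalization.

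Not every member was called lower in ESC than in ICM. miR-6909-3p was at 848 and 1181 in ICM, 410 to 1266 in outgrowths (median 574), and 998 and 1265 (P15), 194 and 185 (P2), and 2841 and 1301 (P4) in ESC. The ESC groups lay on both sides of ICM, and none of the 5 comparisons called it: from ICM to ESC the change was -0.43 (SE 0.31, adjusted p = 0.26). miR-7068-3p, which shares its seed with miR-7023-3p, had 98 and 81 in ICM, 0 to 68 in outgrowths (median 34.5) and 27 to 122 in ESC (median 59.0). All outgrowths lay below ICM, and ESC overlapped both. From ICM to ESC the change was -0.54 (SE 1.21, adjusted p = 0.73). From ICM to outgrowths it was -2.31 (SE 1.14, adjusted p = 0.15), and at the floor it was called, at -1.18 (adjusted p = 0.0050). So within that seed pair 1 arm was lower in ESC and the other overlapped ICM, a difference that was not tested.

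Other members had values that replicates did not share. miR-7025-3p, whose hairpin lacks splice-site ends, was at 8197 in day 0.5 replicate 2 and 19 in replicate 1, and at 1913 in ESC P2 replicate 1 and 0 in replicate 2. The other 14 libraries held 0 to 161. Without it and the other 2 most abundant members, the members' share at day 0.5 was 0.764% and 1.01%, against 1.01% and 2.35% with them. miR-6931-5p, from Dcakd, had 277 and 0 in ICM and 0 and 322 at day 0.5, but 154 and 155 at day 3 and 264 and 351 in ESC P15. No comparison called either of these miRNAs.

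The 5p and 3p arms of a hairpin were compared where the table held both, in 101 hairpins of the number range. The 3p arm had the higher sum over 18 libraries in 52, the 5p arm in 47, and both were equal in 2. One arm usually dominated: the median ratio of the higher to the lower sum was 6.0, and it exceeded 10 in 41 hairpins. The 4 hairpins with the largest ratios were miR-7091 (6350 for 5p, 2 for 3p), miR-6968 (1655 for 5p, 1 for 3p), miR-6909 (10 for 5p, 15372 for 3p) and miR-7000 (17945 for 5p, 17 for 3p). The higher arm was thus 5p in 3 of these and 3p in the other.

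**Figure D5:**
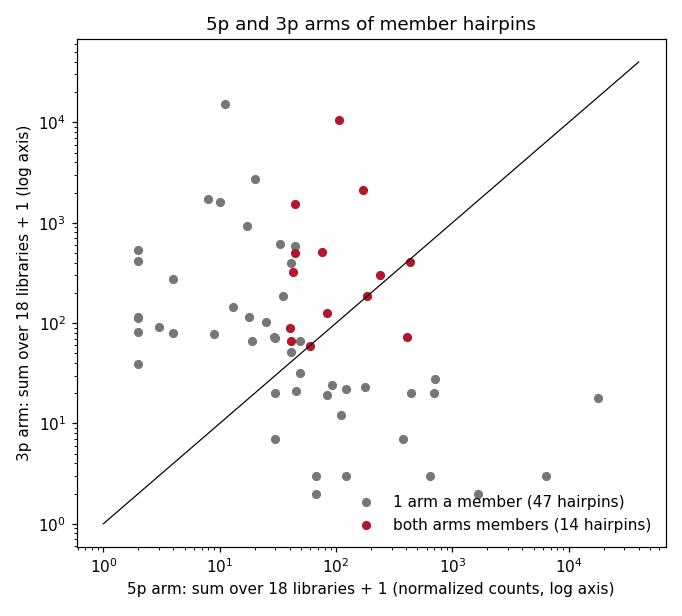
Sum over 18 libraries plus 1, in normalized counts on log axes, of the 5p arm and the 3p arm of each hairpin with both arms in the table and at least 1 arm a member (61 hairpins). The line marks equal sums. Most points lie far from the line on either side, and the 14 hairpins with both arms members lie nearer to it, with a median ratio of 4.00.

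Both arms were members in 14 hairpins, and the 3p arm had the higher sum in 10 of them, the 5p arm in 3 and neither in 1. Besides miR-6923, miR-6982, miR-7025 and miR-6921 these were miR-6906, miR-6915, miR-6934, miR-6936, miR-6957, miR-6990, miR-7045, miR-7046, miR-7056 and miR-7084. The miR-6936 pair lies in Sirt7, a nuclear deacetylase gene, with its 5p arm on the first base of a 66-base intron, and had 27 and 22 (3p) and 0 and 19 (5p) in ICM and 0 in ESC for both arms. The miR-7046 pair lies in a 77-base intron of Rabac1: the 3p arm had 76 and 62 in ICM and 2 to 35 in ESC, and the 5p arm never exceeded 24. In miR-6915, from Ankrd52, the 5p arm was called lower in ESC than in ICM (-5.13, SE 0.79, adjusted p = 0.00018, and only -0.58 at the floor). The 3p arm, at 0 and 71 in ICM and 0 to 4 in ESC, was not called.

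The log2 ratio of 5p to 3p was tested between ESC and outgrowths. Of the 14 hairpins 2 shifted toward 5p and none toward 3p, beside 17.6% and 11.4% of the 193 hairpins tested over the whole table. In miR-6923 the ratio rose by 5.11 (SE 0.71, adjusted p = 0.00029), or by 1.16 at the floor. In miR-6982 it rose by 3.98 (SE 0.77, adjusted p = 0.0025), or by 1.19 at the floor. The 3p arms fell over this comparison, as given above, and neither 5p arm was called higher in ESC. For miR-6923 the ratio at the floor is the 3p fall of 1.16 with its sign turned, because its 5p arm lay below the floor throughout. No gain of a 5p arm is read from these ratios. miR-6923-5p never exceeded 13, and miR-6982-5p had 66 and 83 at day 1, 19 in 1 ICM library and at most 2 elsewhere. miR-7056 passed only at the floor (0.43, adjusted p = 0.00013), and both of its arms were at 0 in all 6 ESC libraries. This too equals the change of its 3p arm at the floor, -0.43, with the sign turned.

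Calls were also counted by arm. From ICM to ESC 26 of 51 member 3p arms (51.0%) and 18 of 57 member 5p arms (31.6%) were lower, beside 22.9% of all 345 3p arms and 18.7% of all 358 5p arms tested. At days 2 and 3 against days 0.5 and 1 the member counts were 20 (39.2%) and 16 (28.1%), beside 22.9% and 15.6% of all. This difference between arms was not tested.

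Other short intronic or Drosha-independent hairpins gave a mixed picture. Of 7 arms tested from miR-877, miR-1224, miR-702, miR-320 and miR-484, 4 (57.1%) were lower in ESC than in ICM and none higher. Of all miRNAs tested 23.7% were lower. miR-877-5p, from a well-known mirtron, had 1544 and 955 in ICM, 3029 and 3489 at day 2, and 87 to 321 in ESC. From ICM to outgrowths 1 of the 7 (14.3%) was lower, beside 18.6% of all tested and 34 of the 108 members (31.5%). From outgrowths to ESC 5 of the 7 (71.4%) were lower, beside 19.9% of all and 22.2% of members. From day 5 to ESC 5 of the 7 were lower, beside 9.0% of all and 5.56% of members. None of the 7 was higher in these 3 comparisons. Among 176 other entries numbered from 1900 on, 63 (35.8%) were lower in ESC than in ICM and 15 higher. At the floor 63 of 105 of them (60.0%) were lower and 6 higher, with a median log2 change of -1.04. For the members it was 32 of 58 (55.2%) with a median of -0.64, beside 32.2% of all tested there. A low count of rises and many falls were thus not particular to the members.

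At the edge of the selection, miR-6930-5p, miR-6963-5p and miR-6969-5p just entered, with a second highest value of 10 and a highest of 19. Of the 11 entries just outside, with a second highest value of 9, miR-6932-5p reached 46 and miR-7004-5p 37 in their highest library. miR-6963-5p and miR-6969-5p had identical values in all 18 libraries.

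Markers of other cell types differed between stages, some lower and some higher in ESC than in ICM. The summed fibroblast and smooth muscle list (9 entries found) was 1.19% to 1.36% of normalized counts in ICM, 0.324% to 2.27% in outgrowths and 0.232% to 0.381% in ESC, with miR-143-5p, miR-145a-5p, miR-199a-5p and miR-10b-3p at 0 in both ICM libraries. The blood list (7 entries) was 0.374% to 0.466% in ICM, 0.0705% to 0.424% in outgrowths and 0.0849% to 0.272% in ESC, with miR-144-5p and miR-142-3p at 0 in ICM. The endothelium list (2 entries) was 0.0218% to 0.0229% in ICM, 0.0046% to 0.0402% in outgrowths and 0.0404% to 0.0902% in ESC. The primed epiblast list (7 entries) was 0.0045% to 0.0061% in ICM, 0.0061% to 0.285% in outgrowths and 0.0135% to 0.486% in ESC, with miR-302a-5p, miR-302b-3p, miR-302b-5p and miR-367-3p at 0 in ICM. The hepatic or endoderm list (4 entries) was 0.308% to 0.313% in ICM, 0.0982% to 0.281% in outgrowths and 0.117% to 0.317% in ESC, with miR-122-5p at 0 in ICM and ESC. Their part in the members' decline was not tested. In bulk RNA, fewer cells of a type and less RNA per cell cannot be told apart. The miR-290 to miR-295 entries that mark ICM and ES cells were listed in all stages. They were at 14.8% to 16.8% in ICM, 6.21% to 13.8% in outgrowths and 8.75% to 14.5% in ESC, so both later stages lay below ICM.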

How the data were processed

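Values are scores deposited by the authors: normalized counts rounded to whole numbers, 1 per mature miRNA and library. The submitters' processing notes name cutadapt, DESeq2 1.30.0 and the mm10 build, with no roles. Aligner, counting and annotation: not given in the sources used here.

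Members and lists were chosen with earlier results of these data known. Entries reaching 10 in 2 or more libraries (811) entered the tests. Group means of log2(value + 1) were fitted over all 9 groups by limma 3.58.1 (R 4.3.3) with a mean trend and robust variances, and p-values were adjusted by Benjamini-Hochberg over every entry tested, at a threshold of 0.05. The fit was tested on simulated data. The added 1 shrinks log changes of low values. A 0 in a shallow library can stand for a value too low to be listed, which can overstate a change. The text names the 12 members with the highest mean, up to 5 largest rises and 5 largest falls called per comparison with the same sign at the floor of 27.2, both arms of hairpins with 2 member arms, and entries at the selection's edge. Others were chosen after their values were seen. Reads were estimated from the steps between values, or, for day 5 and ESC, by taking the upper rounding limit of the lowest listed value as 5 reads. The latter gives the lowest depth that rounding allows. These estimates cover counting error only. RefSeq GRCm38.p6 sequences matched 96 of 108 members and 1166 of 1390 entries. Alternatives were other pseudocounts, filters, scalings, library weights, a replicate block and leaving out each library.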

Additional observations from a re-analysis of the deposited data

How the results depend on the processing

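Some alternatives moved the count of members called by over 1.5 times, and the cause was not tested. With library weights the counts were 22 for ESC and 6 for outgrowths, both against ICM, 48 for ESC against outgrowths, 14 for ESC against day 5 and 4 hairpins for arm balance. For days 2 and 3 the count was 22 at the floor, where 58 members were tested, and 21 with the filter at 4 libraries, where fewer were tested. Leaving out 1 library gave 44 to 77 for ESC against ICM, 28 to 61 for outgrowths against ICM and 2 to 9 for ESC against day 5. The highest values of the first 2 came without ICM replicate 1. Within 1.5 times were ESC against outgrowths (22 to 42), days 2 and 3 (28 to 41) and arm balance (2 to 3).

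Over the left-out libraries 50 of 240 changes of named members took both signs, 15 of them from ICM to outgrowths. Where the change was called in the reported fit or in the alternative, the sign turned in 4 cases. From ICM to outgrowths, miR-6936-5p changed by -3.057 to 1.265 when 1 library was left out, the latter without ICM replicate 2. At the floor miR-6982-5p changed by 0.282 and miR-6936-3p by 0.205. From outgrowths to ESC miR-6921-5p changed by -0.516 at the floor.

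Same-numbered libraries did not deviate together: over 36 pairs of groups the correlation was -0.362 to 0.245 and above 0.1 in 3. With a replicate block the counts, against ICM, were 49 for ESC and 32 for outgrowths. The other counts with the block were 29 for ESC against outgrowths, 37 for days 2 and 3, 6 for ESC against day 5 and 2 for arm balance, so no count moved by over 1.5 times. Rescaling to the same total moved the median log2 change of all miRNAs from 0.011 to -0.442 for ESC against ICM and from -0.047 to -0.421 for ESC against day 5. Depth limits values below the floor in the 10 shallow libraries.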
